A study of Mus musculus with 6 samples.

Results

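The GDNF family of ligands and receptors was followed through 6 RNA libraries of mouse dorsal root ganglia, where the cell bodies of sensory neurons sit next to the spinal cord. Its members were taken by gene symbol as Ret, Gfra1, Gfra2, Gfra3, Gfra4, Gdnf, Artn and Nrtn, 8 of the 38926 gene symbols in each library's table, and all 8 were found. The ligands Gdnf, Nrtn and Artn encode GDNF, neurturin and artemin, secreted growth factors that keep sensory, motor and autonomic neurons alive. Each ligand prefers one membrane-anchored co-receptor of the GFR-alpha type (Gfra1 for GDNF, Gfra2 for neurturin, Gfra3 for artemin, Gfra4 for persephin), and the pair then engages RET, the shared tyrosine kinase that carries the signal into the cell. In sensory ganglia RET marks many non-peptidergic pain-sensing neurons and some touch receptors, while Gfra3 is typical of peptidergic pain-sensing neurons.

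Whole ganglia of lumbar levels L3, L4 and L5 came from male wild type C57BL/6 mice aged 6 to 8 weeks. The burn group, taken at day 3 after injury, and the control group had 3 libraries each, with no word on whether controls had a sham procedure. One burn library is titled as ipsilateral and has no number; below it is burn 3, and no side is stated for burn 1 and burn 2. Since no label states that each library is a different animal, the spread behind the p-values, that between these samples, may be technical.

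Totals of gene counts spanned 17273908 to 81968142 reads, and burn 3 and control 3 were the deepest. Markers of pan-neuronal, non-peptidergic, peptidergic and large neurofilament neurons, satellite glia and myelinating Schwann cells were present in every library, so the tissue carried the neurons and glia of a ganglion. Summed levels of these 6 lists overlapped between the groups, with median log2 differences from -0.09 (10 pan-neuronal genes, 2 positive and 8 negative) to 0.01 (6 satellite glia genes). Lists for skeletal muscle (648 to 11090 CPM in controls, 1714 to 10020 after the burn), macrophages, fibroblasts and endothelium overlapped as well. Genes known from injured neurons, chosen because earlier results showed them changed here, summed to 22.04 to 27.5 CPM in controls and 121 to 174 after the burn. The remaining list did not overlap either: 13 markers of spinal cord and oligodendrocytes summed to 69.0 to 125 CPM (counts scaled to a common library size) in controls and 126 to 293 after the burn, and all 11 that could be tested were positive (median log2 difference 1.30). Among them the motor neuron markers Chat and Mnx1 had no read in 1 or 2 of the libraries. In whole tissue, fewer cells of a type and less RNA per cell cannot be told apart.

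Ret, Gfra1, Gfra2 and Gfra3 were abundant, Gfra4 lay near the middle of the genes tested, and the ligands were scarce. On the TPM scale, which divides reads by gene length and so allows levels of different genes to be compared, Ret stood at 233 ± 30.4 (SD, n = 6 libraries), Gfra1 at 91.7 ± 13.4, Gfra2 at 66.0 ± 9.20, Gfra3 at 56.9 ± 6.05 and Gfra4 at 13.3 ± 3.16. The ligands Nrtn, Artn and Gdnf stood at 2.18 ± 0.330, 0.278 ± 0.114 and 0.116 ± 0.0649 TPM. Ret was thus 2.54 times the level of Gfra1, and the ranges of these 2 genes over the 6 libraries did not overlap. The ranges of Gfra1 and Gfra2, of Gfra2 and Gfra3, and of Artn and Gdnf overlapped over the libraries. Ranges leave out that both genes of a pair were read in the same libraries. Within a library, Gfra1 was above Gfra2 and Gfra2 above Gfra3 in 6 of 6, and Artn above Gdnf in 5 of 6. Gfra4 was separated from Gfra3 by a factor of 4.28, and Nrtn from Gfra4 by 6.09. Among 16565 tested genes with a known length, Ret ranked 419 by mean TPM, Gfra1 1338, Gfra2 1903, Gfra3 2224 and Gfra4 7819.

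**Figure D1:**
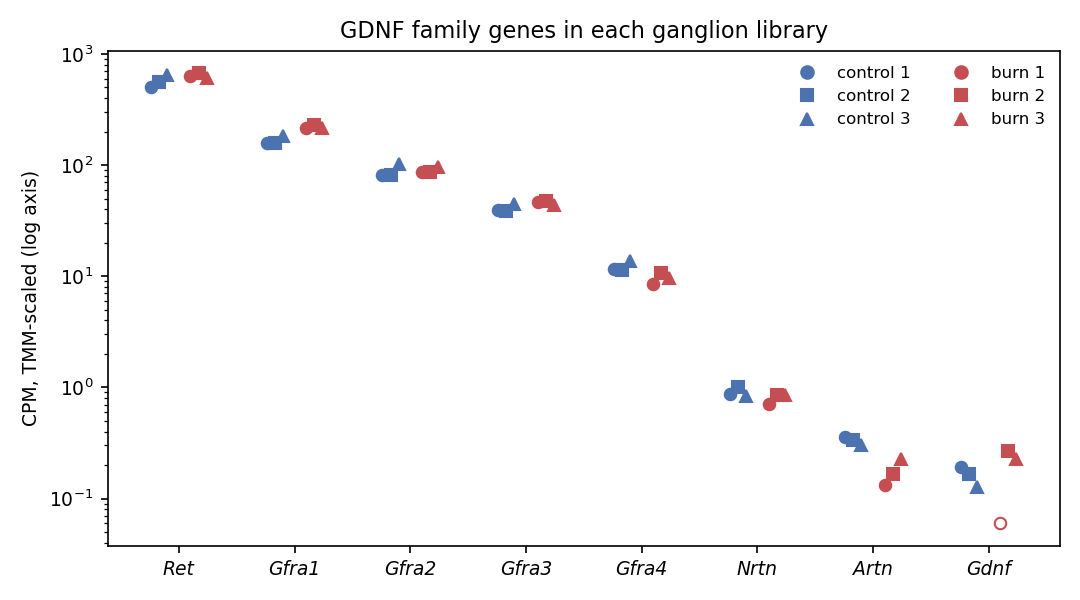
CPM of the 8 members on a log axis, with 3 control libraries (blue) and 3 burn libraries (red), circles, squares and triangles standing for libraries 1, 2 and 3; the open circle at the foot of the axis is Gdnf in burn 1, which had 0 reads. The receptor genes span 8.57 to 670 CPM and the ligands lie far below them, and the burn points of Gfra1 lie above all its control points while those of Gfra4 and Artn lie below theirs.

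After the burn Gfra1, the co-receptor of GDNF, stood higher in each burn library than in any control, and Gfra4 stood lower, while Ret and the co-receptors Gfra2 and Gfra3 overlapped between the groups. None of these differences passed the test over all genes. In edgeR's quasi-likelihood test, 0 of the 6 members that entered it (Gdnf and Artn had too few reads) had a Benjamini-Hochberg adjusted p under 0.05, where 0.0228% of the 17534 genes tested did. DESeq2 (0.132% of 21260 genes called) and limma-voom (0.0171% of 17534) also called 0 members. An unadjusted p under 0.05 was reached by 2 members, Gfra1 on the higher side (2.04% of all genes tested) and Gfra4 on the lower side (0.924%).

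Gfra1 had 5730, 2839 and 14494 reads in control libraries 1 to 3 and 4910, 6994 and 14228 after the burn. Scaled for depth, this was 157, 158 and 182 CPM in controls and 217, 232 and 216 CPM after the burn. Every burn value lay above every control value, a separation seen in this direction in 4.33% of all genes tested, and in either direction in 7.24%. The fold change was 1.34 (log2 0.42, SE 0.11, 95% interval 0.16 to 0.68, n = 3 a group, unadjusted p 0.00618, edgeR adjusted p 0.9998), and it ranked 72 by p among all genes tested. In TPM, which was not given the scaling factors between libraries, Gfra1 stood at 83.6 ± 11.0 in controls and 99.9 ± 11.3 after the burn (n = 3), and the groups overlapped, burn 3 at 91.3 lying under control 3 at 96.2. The log2 difference was 0.25 between the deeper libraries burn 3 and control 3 and 0.51 among the other 4.

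Spinal cord transcripts stood higher in the burn group beside Gfra1. The spinal cord list summed to 125, 125 and 69.0 CPM in control libraries 1 to 3 and to 212, 126 and 293 CPM in burn libraries 1 to 3. Every burn sum lay above every control sum, though burn 2 at 125.9 CPM lay only just above control 2 at 125.3 CPM. Spinal cord transcripts and the burn therefore cannot be told apart behind the Gfra1 difference. The covariate fit given next cannot separate them either, because the covariate was itself higher in the burn group. The part of these transcripts in the difference was not tested. With the mean level of that list as a covariate the log2 fold change of Gfra1 was 0.60 (edgeR adjusted p 0.9999; over the alternatives without crossed replicate numbers the adjusted p ran from 0.339 to 1). Gfra1 lies on chromosome 19 at 58235604 to 58455909 (GRCm38, minus strand) and shares 416 exon bases with the antisense gene Gm16277, which held 0 to 10 reads per library.

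Ret showed no separation between the groups. It had 505, 554 and 647 CPM in controls and 632, 670 and 611 CPM after the burn, from 9948 to 51510 reads per library. Control 3 lay within the burn range. The log2 fold change was 0.17 (SE 0.14, 95% interval -0.15 to 0.48, edgeR adjusted p 0.9998). The difference was -0.08 between burn 3 and control 3 and 0.30 among the other 4 libraries. With a term for the deeper pair the log2 fold change was 0.17, and with every library thinned to the lowest total it was 0.19. With the spinal cord covariate, itself higher in the burn group, it was 0.41. Ret lies on chromosome 6 at 118151745 to 118197718 and overlaps no other annotated gene.

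Gfra2, the neurturin co-receptor, stood at 82.1, 80.7 and 103 CPM in controls and 87.4, 87.5 and 96.0 CPM after the burn. The burn values all lay inside the control range, and the log2 fold change was 0.03 (SE 0.13, 95% interval -0.27 to 0.32). Gfra3, the artemin co-receptor, stood at 39.4, 38.9 and 44.9 CPM against 46.9, 47.4 and 43.9 CPM. Here burn 1 and burn 2 lay above all controls and burn 3 did not, with a log2 fold change of 0.16 (SE 0.11, 95% interval -0.08 to 0.41). Both co-receptors had negative differences between burn 3 and control 3, -0.10 for Gfra2 and -0.03 for Gfra3, and positive ones among the other 4 libraries, 0.10 and 0.27.

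Gfra4, the co-receptor of persephin, went the other way. It had 11.6, 11.4 and 13.6 CPM in controls and 8.57, 10.7 and 9.57 CPM after the burn, from 194 to 1084 reads per library. All burn values lay under all control values, as in 2.91% of genes tested. The log2 fold change was -0.34 (SE 0.15, 95% interval -0.69 to 0.00, unadjusted p 0.0499, edgeR adjusted p 0.9998). It was -0.51 between burn 3 and control 3 and -0.26 among the other 4 libraries. With the spinal cord list as a covariate it was -0.07, but that list was itself higher in the burn group. The fit therefore cannot separate the list from the burn. Gfra4 lies on chromosome 2 at 131039632 to 131043088, and the microRNA gene Mir6973b lies within its span.

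**Figure D2:**
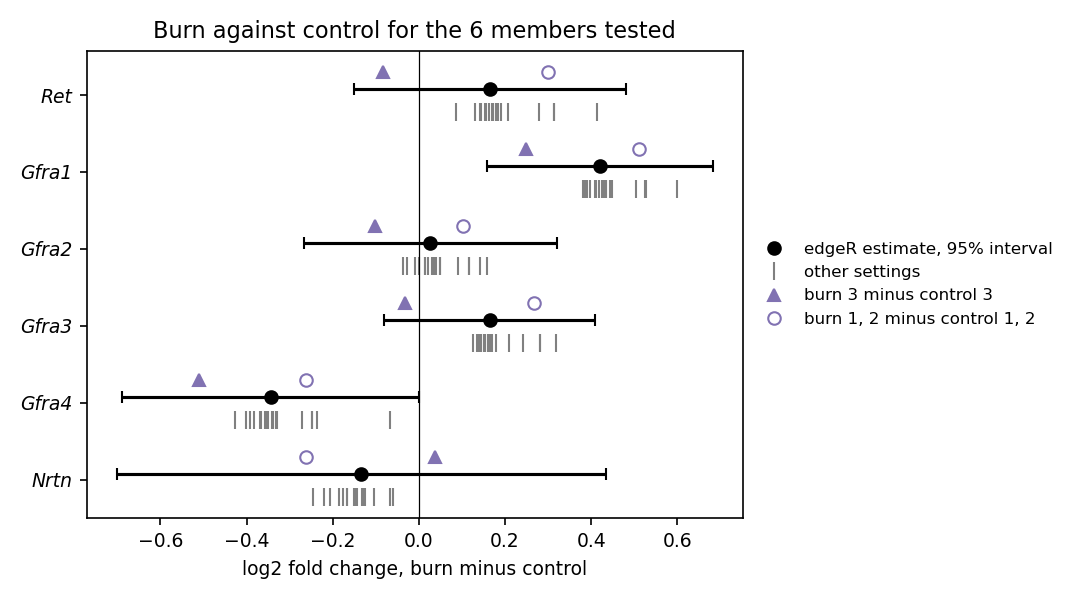
Log2 fold change of burn over control for the 6 members tested, with the edgeR estimate and its 95% interval in black, 17 or 18 other settings as grey ticks, and the difference within the deeper pair (triangle) and within the other 4 libraries (open circle) in purple. Gfra1 lies above 0 and Gfra4 below 0 in all of them, while the purple marks of Ret, Gfra2, Gfra3 and Nrtn fall on both sides of 0.

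The make-up of the co-receptor transcripts is a share within each library that no scaling between libraries can move. Of the 4 shares, those of Gfra1, Gfra2 and Gfra4 did not overlap between the groups, and no test was made of them. In CPM, 7.24% of all genes tested did not overlap. No such background was computed for shares of a sum, so that percentage is not a yardstick for them. Gfra1 made up 37.2%, 37.8% and 36.5% of the summed TPM of Gfra1 to Gfra4 in controls and 43.2%, 44.2% and 42.5% after the burn. Its mean share was 37.1% ± 0.636 in controls and 43.3% ± 0.873 after the burn (SD, n = 3). Gfra4 held 6.96%, 6.90% and 6.90% in controls and 4.31%, 5.18% and 4.75% after the burn. Gfra2 went from 30.7% ± 1.12 to 27.3% ± 1.70, also without overlap, and Gfra3 stayed within its spread at 25.3% ± 0.531 and 24.7% ± 0.989. Shares of one sum are tied to each other, so a larger part for Gfra1 lowers the others, and the level of Gfra2 itself had a log2 fold change of 0.03.

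Ratios between pairs of genes were compared next; they share genes, so they are not separate evidence. Gfra1 per Ret, as a ratio of TPM, was 0.383, 0.353 and 0.348 in controls and 0.424, 0.427 and 0.438 after the burn. The mean difference was 0.25 on the log2 scale, a factor of 1.19, with the burn libraries all above the controls. Gfra1 per Gfra2 was 1.23, 1.26 and 1.14 in controls and 1.60, 1.71 and 1.46 after the burn, a log2 difference of 0.39. The exact two-sided permutation test gave p = 0.1 for each of these, the smallest p that 3 against 3 libraries allow, and 0.2 after adjustment over the 4 ratios compared. Gfra2 per Ret differed by -0.14 (exact permutation p = 0.2) and Gfra3 per Ret by 0.00 (exact permutation p = 1). The difference of Gfra1 per Ret was 0.33 in the deeper pair and 0.21 in the other 4 libraries, and that of Gfra1 per Gfra2 was 0.35 and 0.41.

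**Figure D3:**
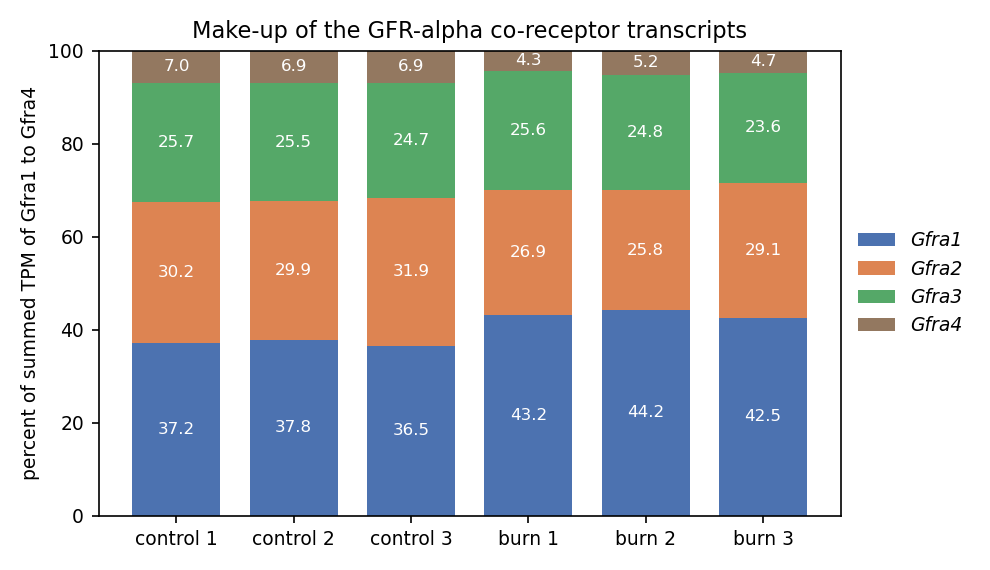
Stacked bars of the percent of summed TPM of the 4 co-receptor genes in each library, 3 controls on the left and 3 burn libraries on the right. The lowest segment, Gfra1, lies between 36.5% and 37.8% in controls and between 42.5% and 44.2% after the burn, and the top segment, Gfra4, is thinner in each burn library.

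The ligand genes were too sparse for firm statements. Nrtn, which encodes neurturin, had 32, 18 and 66 reads in controls and 16, 26 and 56 after the burn, or 0.902 ± 0.0894 and 0.807 ± 0.0865 CPM (n = 3). The groups overlapped, and the log2 fold change was -0.13 (SE 0.24, 95% interval -0.70 to 0.43). Artn, which encodes artemin, had 13, 6 and 24 reads in controls and 3, 5 and 15 after the burn. In CPM the controls stood at 0.355, 0.334 and 0.302 and the burn libraries at 0.133, 0.166 and 0.228, without overlap. Among the genes tested, which did not include Artn, 2.91% were separated in this direction. Pooled over libraries and scaled for depth, burn over control was 0.605 for Artn, with a 95% exact binomial interval of 0.348 to 1.03 that covers counting error only and includes no change. Without the filter on low counts the edgeR log2 fold change of Artn was -0.83 (adjusted p 0.921).

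Gdnf had 7, 3 and 10 reads in controls and 0, 8 and 15 after the burn. The 0 in burn 1 allows up to 0.133 CPM (3 reads in that library), a limit that lies inside the range of 0.126 to 0.191 CPM in controls. Pooled and scaled as for Artn, the ratio was 1.30 (95% exact binomial interval 0.683 to 2.50). That interval again covers counting error only and includes no change, so neither a rise nor a fall was shown. Pspn, which encodes persephin, had 0 reads in all 6 libraries, which allows from 0.0377 to 0.167 CPM per library. Gfral, a RET co-receptor of the hindbrain for the hormone GDF15, had 2 reads in all, both in burn 3, and Gdf15 itself had 0 to 9 reads per library.

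Upstream sequence was read for the members whose groups did not overlap, Gfra1, Gfra4 and Artn, with sequences and gene starts from RefSeq on GRCm38.p6. Such a lack of overlap in either direction was seen in 7.24% of the 17534 genes tested, which did not include Artn. The table held 7 windows for 5 members (Gfra1, Gfra4, Artn, Gdnf and Nrtn). The 250 bases before each start were searched on both strands for TGANTCA and for TGACGTCA, the site of CREB and ATF family dimers. TGANTCA, with N for any base, is looser than the site of Jun and Fos family dimers, which has C or G there. Of the 7 windows, 1 held a TGANTCA, 34 bases before the downstream start of Gfra4, and 0 held a TGACGTCA. The match reads TGATTCA, with T in the middle, so it is not the usual Jun and Fos site. Over all 32851 windows of that length in the table, 6.75% held the first motif and 1.55% the second. The windows are printed 5′ to 3′ on the gene's strand, with the match in capitals. For Gfra1 the last 62 bases before the start are shown, because the rest lies in an exon of another annotated transcript.
Gfra1, chr19:58455399-58455460, minus strand: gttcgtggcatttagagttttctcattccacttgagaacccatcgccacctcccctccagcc
Gfra4, upstream start, chr2:131043089-131043338, minus strand: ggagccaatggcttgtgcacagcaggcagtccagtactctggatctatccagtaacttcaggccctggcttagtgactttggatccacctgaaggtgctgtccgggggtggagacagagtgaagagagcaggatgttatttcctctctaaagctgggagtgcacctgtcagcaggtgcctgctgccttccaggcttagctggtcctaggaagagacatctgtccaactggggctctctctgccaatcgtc
Gfra4, downstream start, chr2:131042683-131042932, minus strand: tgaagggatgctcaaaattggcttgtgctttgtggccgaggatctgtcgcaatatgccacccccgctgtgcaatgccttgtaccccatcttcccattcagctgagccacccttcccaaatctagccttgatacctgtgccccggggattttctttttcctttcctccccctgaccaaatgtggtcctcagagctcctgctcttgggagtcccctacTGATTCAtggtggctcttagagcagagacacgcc
Artn, chr4:117929764-117930013, minus strand: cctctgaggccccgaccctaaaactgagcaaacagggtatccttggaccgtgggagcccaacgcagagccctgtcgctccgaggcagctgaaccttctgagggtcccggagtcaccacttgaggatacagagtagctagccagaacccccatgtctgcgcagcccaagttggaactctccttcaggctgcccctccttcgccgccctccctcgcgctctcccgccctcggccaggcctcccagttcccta
A match is a run of letters and not a measured binding site, and the absence of a match says only that these letters are not in the window.

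Genes that act with RET were read from 4 lists. By edgeR, DESeq2 and limma-voom, 0 genes of any of the lists passed over all genes. As background for the lists, the 17534 genes tested gave 9137 positive and 8397 negative log2 fold changes, with a median of 0.01. Of 26 tested adaptors and effectors, which couple active RET to the ERK, PI3-kinase and phospholipase C pathways, 14 were positive and 12 negative, with a median log2 fold change of 0.03 beside 0.01 for all genes tested. None of these had an unadjusted p under 0.05, where 2.04% of all genes tested did on the higher side and 0.924% on the lower. The lowest p-values stood at Sos1, a Ras exchange factor (87.2 ± 7.36 CPM in controls and 123 ± 44.5 after the burn, n = 3), at Frs2, a docking protein (33.4 ± 4.20 and 43.5 ± 11.0 CPM), and at Frs3, its relative (16.1 ± 2.34 and 13.5 ± 0.878 CPM). Sos1 rested on burn 3, with 175 CPM against 99.3 and 96.1 in burn 1 and burn 2.

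In the list of feedback and turnover genes 17 were tested, 14 positive and 3 negative, with a median log2 fold change of 0.15. With an unadjusted p under 0.05, 4 genes were on the higher side and 0 on the lower, where 2.04% and 0.924% of all genes tested were. Cblb, a ubiquitin ligase of the Cbl family that tags receptor kinases, stood at 28.5, 29.9 and 26.0 CPM in controls and 35.9, 33.1 and 36.1 CPM after the burn (log2 fold change 0.32, SE 0.11, edgeR adjusted p 0.9998). Cbl, which marks RET for degradation, had 0.36 (SE 0.15), with overlap between control 2 at 55.3 CPM and burn 2 at 52.9 CPM. Spred2, an inhibitor of Ras signalling, stood at 34.5 ± 2.47 and 42.3 ± 2.53 CPM without overlap (n = 3). Etv5, an ETS transcription factor switched on by RET signalling in the developing kidney, had 0.34 (SE 0.14); the rule for named genes does not cover it, and it was picked after its value was seen. The other 13 tested genes of the list, which include ERK phosphatases of the Dusp family, Sprouty inhibitors and ETS factors, lay between -0.19 and 0.29.

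Other genes tied to RET or its ligands gave 6 positive and 1 negative value among 7 tested (median 0.12). Of these, 0 had an unadjusted p under 0.05, where 2.04% of all genes tested did on the higher side and 0.924% on the lower. Ncam1, a cell adhesion molecule that can bind GDNF without RET, had a log2 fold change of 0.14 (SE 0.13). Cdh2, which encodes N-cadherin, had 0.19 (SE 0.16), Sorl1, a sorting receptor of GDNF and GFR-alpha1, 0.20 (SE 0.13), and Gas1, a distant relative of the GFR-alpha co-receptors, -0.36 (SE 0.27). Receptors of other growth factors and cytokines gave 11 positive and 5 negative values among 16 tested (median 0.13). With an unadjusted p under 0.05, 1 gene was on the higher side, where 2.04% of all genes tested were. That gene was Il6st, the shared signal subunit of the interleukin-6 family, at 609 ± 40.9 CPM in controls and 756 ± 43.4 after the burn (log2 fold change 0.31, SE 0.12, edgeR adjusted p 0.9998). Ntrk3, the receptor of neurotrophin-3, had 0.28 (SE 0.15), with overlap between the groups.

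**Figure D4:**
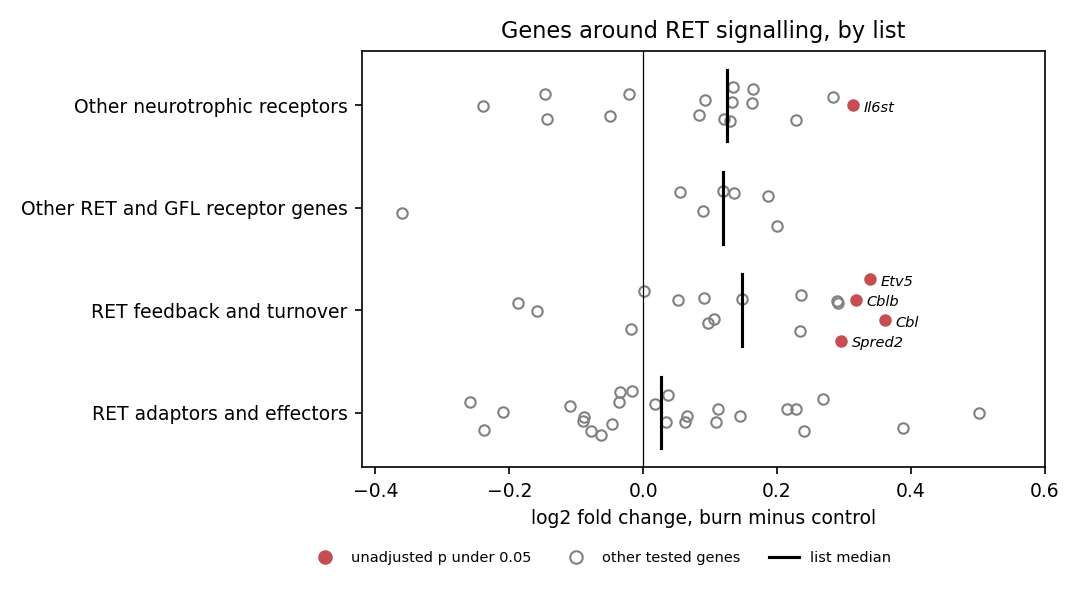
Log2 fold change of burn over control for each tested gene of 4 lists around RET signalling (GFL stands for GDNF family ligand), with filled red points for genes with an unadjusted p under 0.05 and a vertical bar at each list's median. In the feedback and turnover list 4 genes, Cblb, Spred2, Cbl and Etv5, lie between 0.30 and 0.36, and the adaptors and effectors spread from -0.26 to 0.50 around a median of 0.03.

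The genes most like Ret and Gfra1 across the 6 libraries were sought among 11572 tested genes whose log2 CPM averaged 3 or more, by the root-mean-square difference of log2 CPM centred on its mean. Nearest to Ret were Slc1a4, a neutral amino acid transporter (difference 0.0366), Enc1 (0.0428) and Cntn2, a neuronal adhesion molecule (0.0523). These had log2 fold changes of 0.13, 0.15 and 0.11, beside 0.17 for Ret. Nearest to Gfra1 were Mtus2 (0.0873), Crtac1 (0.0895) and Iqsec3 (0.0909), with log2 fold changes of 0.40, 0.36 and 0.29, beside 0.42 for Gfra1. The measure describes 6 libraries that share their depths and group labels. Since it includes the contrast of burn and control, the genes it picks had to have log2 fold changes near those of Ret or Gfra1.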

How the data were processed

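The authors deposited 1 table of raw read counts by gene symbol for each library, made from stranded total RNA libraries sequenced as single-end reads of 75 nucleotides, per the labels' protocols. Per the submitters' processing notes, STAR, SAMtools and HTSeq were used, with GRCm38 (mm10) as build. For the annotation release and strand setting, nothing is given in the sources used here. HTSeq's 5 tally lines, which name no gene, held 49.2% to 56.2% of entries and were left out.

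Counts were tested with edgeR 4.0.16 in R 4.3.3 on all 6 libraries: filterByExpr (minimum count 10, minimum total 15, leaving 17534 genes), TMM scaling, estimateDisp and glmQLFit, both robust, glmQLFTest with group as the only term, and Benjamini-Hochberg adjustment over all genes, called under 0.05. The SE is the log2 fold change divided by the square root of F; intervals use edgeR's degrees of freedom. CPM uses TMM-scaled totals. TPM uses exon-union lengths of GENCODE M21 on GRCm38 (91.6% of the 38926 symbols matched). No 2 libraries of a group were alike within sampling noise (chi-square over its degrees of freedom at least 43.6). The fit was tested on simulated data with planted changes larger than those of the members tested. That check does not show whether differences of the members' size would be called. Alternatives used DESeq2 1.42.0 and limma 3.58.1 among others. Members and lists were chosen with earlier results of these data known. The named genes were the members, Pspn, Gfral, Gdf15 and Ncam1, every called gene and the 3 lowest p-values of each list, and the 3 genes most like Ret and Gfra1; an item the rule covers is not reported here. Figures used matplotlib 3.10.9.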

Additional observations from a re-analysis of the deposited data

How the results depend on the processing

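No member was called under any of 18 planned refits or at an adjusted p under 0.1, and 0 genes of the 4 lists were. Over those alternatives the log2 fold change of Gfra1 lay between 0.38 and 0.60, of Gfra4 between -0.43 and -0.07, of Ret between 0.09 and 0.41, of Gfra3 between 0.13 and 0.32, and of Nrtn between -0.25 and -0.06, each with its sign kept. Leaving out 1 library at a time moved Gfra2 between -0.038 and 0.16, with its sign reversed without control 1 (-0.026), control 2 (-0.038) or burn 3 (-0.010), and the ratio Gfra3 per Ret between -0.035 and 0.050, reversed without control 1 (0.050) or burn 2 (0.012). Titles share the numbers 1 and 2 between groups. With these as a replicate block over 4 libraries, 0 members and 4 genes in all were called, against 15 without the block, and the block gave 0.53 for Gfra1. The deviations of same-numbered libraries correlated at -0.473. A block with crossed numbers, added after the data were seen, called 1 member, Gfra1 (0.53), among 413 genes called of 17319 tested. Libraries paired by crossed numbers correlated at 0.473, the same value with the other sign. The call of Gfra1 under the crossed block is therefore not separate evidence. Without that crossed block, calls over all genes ran from 0 (spinal cord covariate) to 38 (depth term), beside 4. With the longest transcript as gene length, Gfra3 moved from 56.9 to 48.3 TPM and the order of members stayed. Gdnf and Artn gave no value under most settings. Depth limits the ligands, with 0 to 66 reads per library.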
